A study of Mus musculus with 9 samples.

Results

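Unannotated splice junctions of MS1 cells, an established mouse pancreatic endothelial line, were described here across control cells and cells carrying 2 TAZ constructs. A junction was kept when the aligner's junction files marked it as not annotated, its intron carried a known splice motif, and its uniquely mapped reads summed to 50 or more over the 9 libraries. The rule gave 2806 of the 134954 unannotated junctions with a known motif and at least 1 unique read, or 2.08%. These 2806 held 605342 of 1060447 unannotated reads (57.1%). The junctions were chosen by their read sums over all 9 libraries and not by any difference between groups, so the sums and sizes below are given as a description with no test. Of the 2806, 72 reached 50 reads through 1 group alone (10 through control, 49 through TAZ4A and 13 through TAZ-CAMTA1), and a difference between groups in those 72 follows from the rule. The 72 had 50 or more reads in that group and under 50 in the other groups together. A junction just over the minimum, with under 50 reads in its high group, can also have passed because of that group and is not among them. Each of the 72 that is named below is marked as such, its values are given as a description with no p-value, and the counts of calls are also given without them.

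All 9 libraries came from MS1 cells transduced with a lentiviral backbone, 3 per group. The control cells carried the empty backbone pCDH-puro. The TAZ4A cells carried pCDH-TAZS4A, which encodes a form of the transcriptional coactivator TAZ with serines replaced by alanine, and the TAZ-CAMTA1 cells carried pCDH-TAZ-CAMTA1, the gene fusion known from epithelioid hemangioendothelioma (fusion cells below). The labels do not say whether replicates came from separate cultures, so every p-value measures only the spread between these libraries, which may be technical. Poly-A RNA was sequenced, and 6410070 to 9889541 reads per library spanned a junction uniquely. Junction usage is given as RPM, the reads of a junction scaled to 1000000 unique junction reads of its library. CPM gives gene counts scaled in the same way. Of 12 endothelial markers, 1 was under 0.5 CPM in every library, control included. Summed CPM of the 12 was 11853 to 12044 in control, 7787 to 8075 in TAZ4A and 11258 to 12810 in fusion cells. Cldn5 was listed at 0 in the TAZ4A libraries. The 9 fibroblast and smooth muscle markers, 5 of them under 0.5 CPM in every library, summed to 5.2 to 6.21 CPM in control, 13.6 to 14.9 in TAZ4A and 10.01 to 16.1 in fusion cells, and their part in the results was not tested. Of 10 pancreatic exocrine and islet markers 3 were in the table and summed to at most 0.368 CPM, and 4 of 8 blood markers summed to at most 0.765 CPM.

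The second TAZ-CAMTA1 library stood apart. Of its junction reads 30.6% mapped to several places, against 20.8 to 22.2% in the other 8, and 282 of the 2806 junctions had no read in it, against 3 to 32 elsewhere. Its log RPM values over the 2806 correlated with those of the other TAZ-CAMTA1 libraries at 0.610 to 0.641, while the other 7 pairs within a group lay between 0.859 and 0.918, as a description across junctions that share library and depth. With this library the median log2 fold change over all tested junctions was -0.13 for TAZ-CAMTA1 against control and -0.17 against TAZ4A, and without it 0.01 and -0.02. Counts of calls over all 2806 junctions, their kinds and the gene lists are therefore given with it and without it.

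Splicing removes an intron between a donor (5′ splice site) and an acceptor (3′ splice site), nearly always bounded by GT and AG. A gene can use other donors or acceptors, skip an exon, or include one that a gene catalogue lacks, and some of these choices alter the protein or lead the message to nonsense-mediated decay. A junction is called unannotated only against the catalogue given to the aligner, so the class mixes rare splicing with ordinary introns that this catalogue does not list.

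The sequences printed here show the forms that the results turn on, and each is the spliced exon sequence from GENCODE vM21 transcripts (GRCm38, the build of the files). In each, 15 lower-case bases end the upstream exon and 15 capitals begin the downstream exon. The first sets show a donor moved by 4 bases (Rps28) and acceptors moved by 3 bases (Fst and Thbs1).
Rps28 unannotated, chr17:33823117-33823192, minus strand: tcttgcagctggtggGGTTCTGGATATCCA
Rps28 annotated, chr17:33823117-33823196, minus strand: ttaatcttgcagctgGGTTCTGGATATCCA
Fst unannotated, chr13:114454511-114455120, minus strand: agggaaagtgtatcaAAGCAAAGTCCTGTG
Fst annotated, chr13:114454508-114455120, minus strand: agggaaagtgtatcaCAAAGTCCTGTGAAG
Thbs1 unannotated, chr2:118114410-118114653, plus strand: aaggctgctccagctCTACCAACGTCCTTC
Thbs1 annotated, chr2:118114410-118114650, plus strand: aaggctgctccagctCAGCTACCAACGTCC
The other sets show a more distant donor (Fkbp1a) and an exon skip (Pecam1) whose usage or share differed between groups.
Fkbp1a unannotated, chr2:151544141-151557385, plus strand: gcagtagctgttgtgGGATGCTTGAAGATG
Fkbp1a annotated, chr2:151542866-151557385, plus strand: tggtgcactacacggGGATGCTTGAAGATG
Pecam1 unannotated, chr11:106679612-106682879, minus strand: ccaacagccattacgACCCCCAGAACATGG
Pecam1 annotated, chr11:106679612-106681031, minus strand: taaatcaaaataaagACCCCCAGAACATGG

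By their ends, the 2806 junctions fell into 4 classes. Both ends were annotated, in another pairing, in 529, of which 512 (96.8%) skipped an annotated exon. An unannotated acceptor was joined to an annotated donor in 809, an unannotated donor to an annotated acceptor in 817, and neither end was annotated in 651. The motif was GT-AG in 2802 and GC-AG in the other 4, against 94171 of 95002 annotated junctions (99.1%) of the same read minimum with GT-AG. The last exonic base before the donor was G in 80.6% of unannotated and 80.8% of annotated junctions where a transcript covered it. GENCODE vM21 contains 2044 (72.8%) of the 2806 as an intron, and it contains 94935 (99.9%) of the annotated ones.

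Most were used at low levels. The median total was 95 reads (quartiles 66 to 172) and the median mean usage 1.21 RPM, against 4.18 RPM for annotated junctions. The share of all unique reads at either end was summarised for 2210 junctions. These had another junction at an end and enough reads. Their median share was 22.2% (quartiles 7.26 to 53.6%), 416 took under 5% and 592 took 50% or more. Left out were 179 with no other junction at either end and 417 with too few reads. Hosts of all the unannotated junctions numbered 1681, of which 1132 had 1 junction and 52 had 5 or more. Rnf213, which encodes a very large ubiquitin ligase, had 68, Srcap 29 and Stard9 13. None of those 110 had an annotated end, and the files held 0 annotated junctions within the span of each of these 3 sets, while vM21 lists 65, 29 and 13 of them. No junction lay in or touched Camta1 or Wwtr1, the mouse genes of CAMTA1 and TAZ. At the threshold, 42 junctions had 50 reads and 59 had 49: those just inside included junctions of Nav1, Cep170 and Lbr, and those just outside lay at chr1:63177292-63177722, chr1:155240800-155241424 and chr1:161036245-161036819.

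Small moves of an acceptor were mostly by a multiple of 3 bases. Among 377 unannotated acceptors within 50 bases of the annotated one, 327 moved by a multiple of 3, and 232 moved by exactly 3, the tandem form of the Fst and Thbs1 sequences above. The 140 donors within 50 bases included 85 at a multiple of 3, 13 at 4 bases and 5 at 3 bases. In 136 tandem acceptors the unannotated site lay 3 bases downstream (median share 20.9%), and in 96 it lay 3 bases upstream (32.6%). The 3 bases lost or gained were CAG in 90 and 61, AAG in 29 and 8, and TAG in 15 and 8. The unannotated site was the main one, at 50% or more of the reads, in 21 of 130 and 22 of 86 with enough reads. A pair of unannotated junctions bounded 199 internal exons, of which 126 (63.3%) had a length divisible by 3 and 164 (82.4%) had both junctions in vM21. One was a 23-base exon of Pecam1 at chr11:106662002-106662024, minus strand, read here from vM21 and printed because its length is not a multiple of 3: ATCTCATGGAAAACAGATACTCT.

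**Figure D1:**
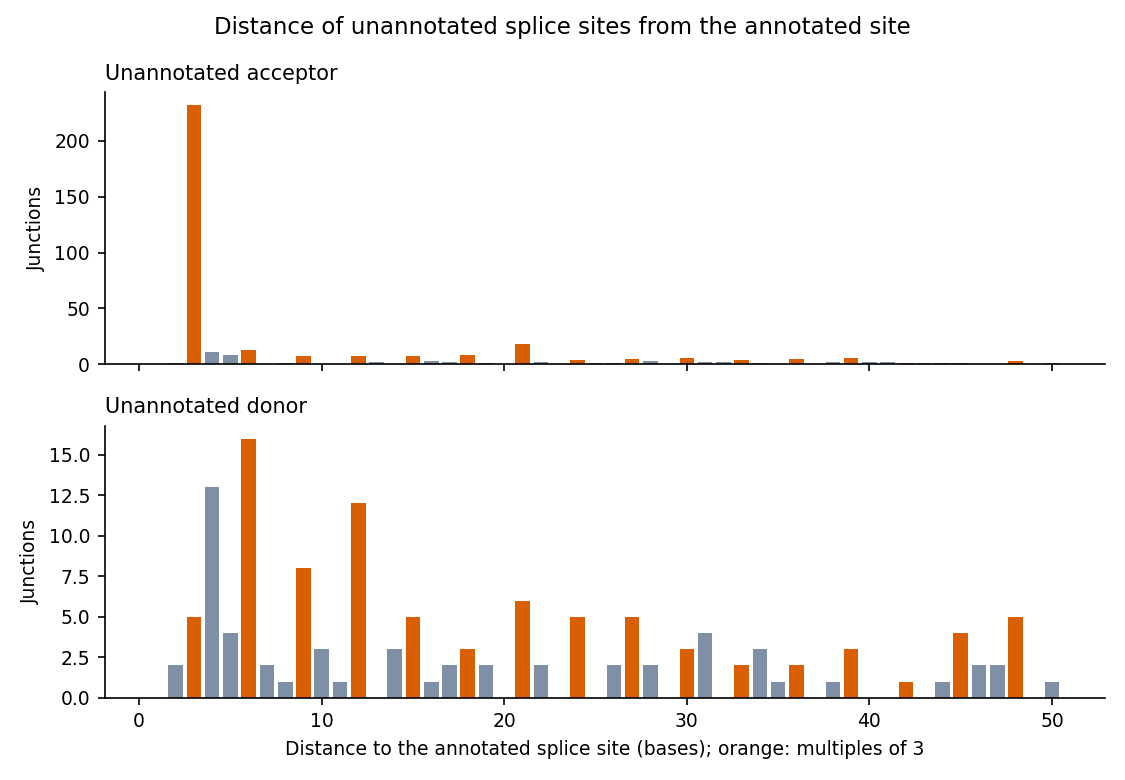
Number of unannotated junctions (y axis) by distance in bases from the unannotated site to the annotated site of the same junction partner (x axis, 1 to 50), for acceptors and donors, with multiples of 3 in orange. The acceptor bar at 3 bases holds 232 junctions, the donor bar at 4 bases holds 13.

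The 10 highest junctions held 98724 reads, or 16.3% of all reads of the 2806. The Rps28 junction, in a gene for a small ribosomal subunit protein, was the highest, with 33705 reads. Its RPM was 521, 406 and 296 in control, 313, 314 and 321 in TAZ4A, and 357, 984 and 573 in fusion cells. It took 99.7 to 100% of reads at its ends in every library, and the annotated junction 4 bases away had 0 unique reads. Rps28 has near-identical copies in the genome, so its counts are uncertain. Next came an unannotated acceptor of Hnrnpa2b1, which encodes an RNA-binding protein of the hnRNP family, with 168, 220 and 216 RPM in control, 193, 209 and 209 in TAZ4A, and 146, 171 and 114 in fusion cells. The control and TAZ4A values overlapped, and 2 of the 3 TAZ-CAMTA1 libraries lay below both groups. The others in the 10 were 3 junctions of Gas5, a noncoding host gene of small nucleolar RNAs, and 2 of Pecam1, the endothelial adhesion molecule CD31. Bud31, Ndufb1-ps and a region with no host gene had 1 each. For the Ndufb1-ps junction, vM21 lists a noncoding RNA from a bidirectional promoter. The symbol is of a form given to pseudogenes, so close copies may exist and its reads are uncertain.

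In control cells, the 2806 junctions took 0.757, 0.725 and 0.736% of unique junction reads (0.739 ± 0.0161%, SD, n = 3). The TAZ4A libraries had 0.801, 0.802 and 0.814% (0.806 ± 0.00759%), and TAZ-CAMTA1 had 0.765, 0.801 and 0.782% (0.783 ± 0.0181%). All TAZ4A and all TAZ-CAMTA1 values lay above all control values. The highest TAZ-CAMTA1 library, the second, and the lowest TAZ4A library both had 0.801%.

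Of the 4 classes, junctions with neither end annotated differed most between TAZ4A and control. Their sum was 1724 to 1827 RPM in control, 2396 to 2484 in TAZ4A, and 1996, 2253 and 1998 in fusion cells. The 68 Rnf213 junctions summed to 241, 186 and 257 RPM in control, 627, 633 and 643 in TAZ4A, and 247, 52.2 and 261 in fusion cells. The Gas5 junctions summed to 358, 339 and 321 RPM in control, 485, 494 and 551 in TAZ4A, and 412, 796 and 457 in fusion cells. So both hosts stood above control in every TAZ4A library, and the second TAZ-CAMTA1 library was lowest for Rnf213 and highest for Gas5. Without these 2 hosts, junctions with neither end annotated summed to 1194 to 1227 RPM in control, 1274 to 1291 in TAZ4A and 1280 to 1404 in fusion cells, and over all classes the control range (0.673 to 0.697%) held the TAZ4A range (0.689 to 0.695%). The TAZ-CAMTA1 libraries then had 0.699, 0.716 and 0.711% over all classes, above every control and every TAZ4A value.

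The other classes differed less between these groups. Junctions with both ends annotated summed to 1279 to 1329 RPM in control, 1254 to 1273 in TAZ4A and 1231, 1079 and 1273 in fusion cells. Those with an unannotated acceptor summed to 1982 to 2044 RPM in control, 2199 to 2253 in TAZ4A and 2120, 2043 and 2050 in fusion cells. Those with an unannotated donor summed to 2205 to 2451 RPM in control, 2136 to 2157 in TAZ4A and 2301, 2635 and 2502 in fusion cells. Without the Rps28 junction, that last class spanned 1651 to 1944 RPM over all 9 libraries. With it, TAZ4A lay above control without overlap for unannotated acceptors and below it for the other 2 classes.

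**Figure D2:**
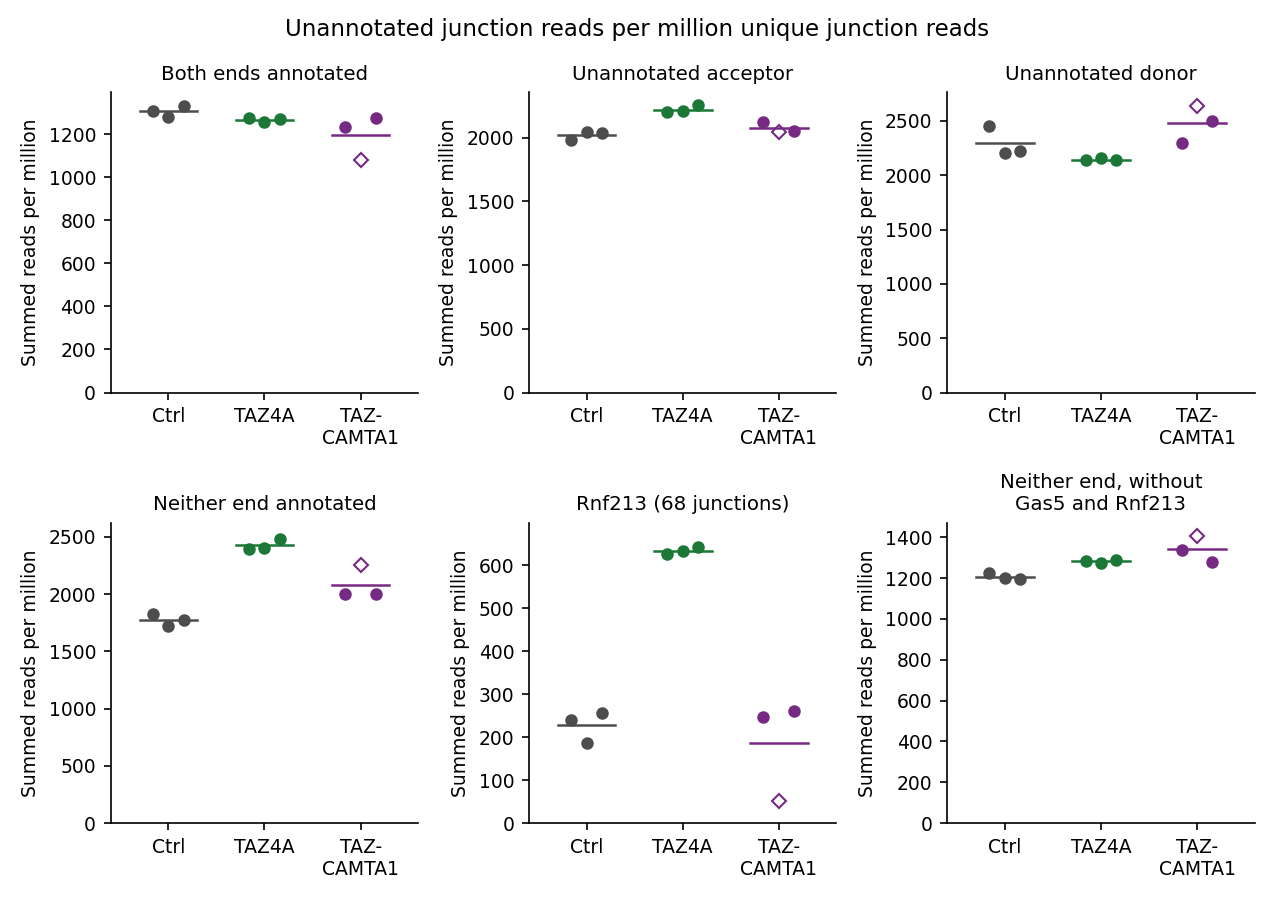
Summed usage (y axis, RPM) of unannotated junctions in each library, by class of ends, for the 68 Rnf213 junctions, and for junctions with neither end annotated without Gas5 and Rnf213; points are libraries, lines are group means (n = 3), and the open diamond is the second TAZ-CAMTA1 library. Rnf213 sums are 627 to 643 RPM in TAZ4A and at most 261 in the other groups.

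The first question for single junctions was which were used more or less in TAZ4A than in control cells. By edgeR's quasi-likelihood test with Benjamini-Hochberg adjustment over 97808 junctions, annotated or not, 36 of the 2806 were called (1.28%), against 1.13% of all junctions tested. Of these 27 were higher and 9 lower, against 0.754% and 0.376% of all junctions. Without the second TAZ-CAMTA1 library the count was 331 (11.8%), 224 higher and 107 lower, against 10.8% of all (6.09% higher and 4.76% lower). Both shares are near the background, so the counts are no result about unannotated junctions as a class. The 36 remained called among the 331. Of the 36, 16 are among the 72 that reached 50 reads through 1 group alone. Without such junctions 20 were called (0.732%), against 0.914% of all junctions, and 283 (10.4%), against 10.3%, when the second TAZ-CAMTA1 library was also left out. Leaving out each library in turn, 5 of the 20 remained called in all 9 fits: 1 each of Fst, Nrg1, Fkbp1a, Mad1l1 and Rsph10b. The Rsph10b junction would not reach 50 reads without control, where it was high, so its call is not free of the rule.

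Fst encodes follistatin, a secreted inhibitor of activin. Its tandem acceptor had 6.08, 7.78 and 9.08 RPM in control, 91.9, 92.6 and 97.3 in TAZ4A, and 6.89, 5.25 and 7.90 in fusion cells. Every TAZ4A library lay far above all others, while control and TAZ-CAMTA1 overlapped. The junction rose by a log2 fold change of 3.61 ± 0.22 (SE) in TAZ4A against control, with an adjusted p of 4.71e-05 by edgeR's quasi-likelihood test. Its share of reads at its ends was 59.1, 67.9 and 73.9% in control, 74.2, 73.6 and 75.5% in TAZ4A, and 63.7, 72.2 and 81.2% in fusion cells, and the share was not called (edgeR adjusted p = 0.789). The gene itself went from 89.3 ± 2.07 to 783 ± 20.2 CPM (SD, n = 3). A second unannotated Fst acceptor, chr13:114453806-114454279, went from 0.624, 0.717 and 0.928 RPM in control to 9.02, 11 and 10.4 in TAZ4A. It is one of the 72, through TAZ4A.

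Nrg1 encodes neuregulin 1, a ligand of ERBB receptors. Of its 9 unannotated junctions 7 are among the 72, through TAZ4A, and the other 2 rose in TAZ4A against control. Together the 9 had 7.18, 6.04 and 8.66 RPM in control, 45.2, 40.1 and 44.5 in TAZ4A and 8.05, 4.57 and 7.29 in fusion cells. TAZ4A stood apart, and the other groups overlapped. The junction at chr8:31849440-31946983, with an unannotated donor, went from 1.72, 1.13 and 1.55 RPM to 10.4, 10.3 and 10.3 (log2 fold change 2.83 ± 0.36, edgeR adjusted p = 0.00405). It took 100% of reads at its ends in every library. The 9 are parts of 1 transcript or a few and are not independent measurements.

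Fkbp1a encodes FKBP12, the target of the drugs FK506 and rapamycin, which also binds type I receptors of the TGF-beta family. Its unannotated donor had 73.2, 65.0 and 75.7 RPM in control, 21.7, 22.2 and 21.2 in TAZ4A, and 36.5, 39.0 and 37.4 in fusion cells. The 3 groups did not overlap, with TAZ-CAMTA1 in between. It fell by 1.71 ± 0.16 on the log2 scale in TAZ4A against control (edgeR adjusted p = 0.000543). Mad1l1 encodes a protein of the spindle assembly checkpoint, and its unannotated donor at chr5:140144061-140174532 had 8.42, 7.37 and 8.97 RPM in control, 2.23, 1.92 and 1.38 in TAZ4A, and 7.95, 7.67 and 8.20 in fusion cells. TAZ4A was the low group, and the other groups overlapped. The log2 fold change was -2.15 ± 0.26 against control (edgeR adjusted p = 0.00288).

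Rsph10b, named for the radial spoke of cilia, had a junction with neither end annotated at 2.18, 1.74 and 1.55 RPM in control, 0.106, 0.101 and 0 in TAZ4A, and 0.424, 0.404 and 0.608 in fusion cells. With so few TAZ4A reads, the ratio of control to TAZ4A was 25.5 (95% counting interval 6.68 to 217). The Rsph10b junction lay near the read minimum and would not reach it without its control reads, so this ratio is a description. A Gm15056 junction had no read in control, 2.65, 2.02 and 2.12 RPM in TAZ4A, and 0.106, 0 and 0.152 in fusion cells, at least 6.27-fold above 3 reads per control library. It is one of the 72, through TAZ4A. Gm15056 also belongs to a group of close copies, so its reads are uncertain.

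The largest rises in TAZ4A against control by fitted fold change were in Fam198b, Gm15056, Fez2, Serpina3g, H2-Q4 and Ccl2. Fam198b encodes a Golgi protein, and its junction at chr3:79884691-79885987, with neither end annotated, had no read in control or TAZ-CAMTA1 and 2.34, 3.24 and 3.08 RPM in TAZ4A. That is at least 7.98-fold above 3 reads per control library. This junction and those of Gm15056 and Fez2 are among the 72, through TAZ4A. The skip of an exon in Ccl2, a chemokine that attracts monocytes, had 0.156, 0.102 and 0 RPM in control, 1.27, 0.910 and 1.38 in TAZ4A and 1.38, 0.538 and 0.912 in fusion cells. It held at most 0.227% of the reads at its ends in any library, and its host gene was at 112 CPM in control and 803 in TAZ4A. The calls of Serpina3g, H2-Q4 and Ccl2 were each lost without at least 1 library, for Serpina3g with an edgeR adjusted p of up to 0.215. The H2-Q4 and Ccl2 junctions lay near the read minimum and would not reach it without their TAZ4A reads, so these are described with no p-value. Serpina3g and the histocompatibility gene H2-Q4 have close copies, and their reads are uncertain.

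The largest falls were in Hnrnpa2b1, Rsph10b, a region with no host on chromosome 11, Neo1 with 2 junctions, and Srxn1, the gene of the antioxidant enzyme sulfiredoxin. Neo1 encodes neogenin, a receptor for netrins and repulsive guidance molecules. Its junction at chr9:58931116-58941954, with neither end annotated, had 5.62, 3.79 and 5.57 RPM in control, 0.743, 0.607 and 0.531 in TAZ4A, and 0.212, 0 and 0.304 in fusion cells. Control was high, and the 3 groups did not overlap. This junction and those of Hnrnpa2b1 and Srxn1 are among the 72, through control. The Neo1 gene was at 947 CPM in control, 505 in TAZ4A and 352 in fusion cells. The highest edgeR adjusted p with 1 library left out was 0.0949 for the other Neo1 junction and 0.197 for the chromosome 11 region.

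**Figure D3:**
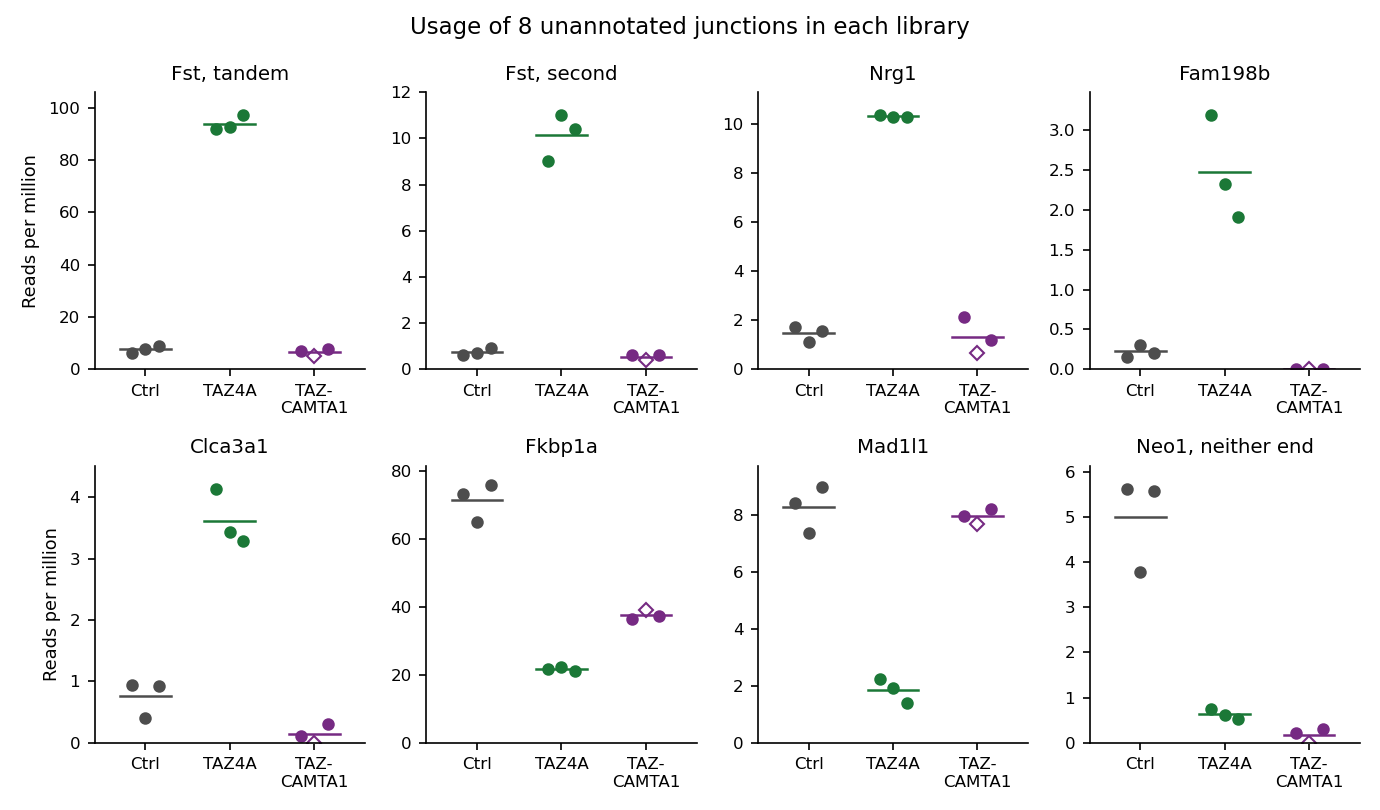
Usage (y axis, RPM) of 8 unannotated junctions in the 9 libraries by group; lines are group means (n = 3) and the open diamond is the second TAZ-CAMTA1 library. The Fst, Nrg1, Fam198b and Clca3a1 panels are highest in TAZ4A, the Fkbp1a and Mad1l1 panels are lowest there, and the Neo1 panel is highest in control. The second Fst, Fam198b, Clca3a1 and Neo1 panels show junctions of the 72.

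For TAZ-CAMTA1 against control, edgeR's quasi-likelihood test called 22 of the 2806 (0.784%), 13 higher and 9 lower, against 0.756% of all junctions (0.577% higher and 0.179% lower). Without the second TAZ-CAMTA1 library the count was 170 (6.06%), 112 higher and 58 lower, against 7.37% of all (4.71% higher and 2.66% lower). Here too the share was near the background. The 22 were among the 170. Of the 22, 9 are among the 72. Without such junctions 13 were called (0.475%), against 0.655% of all junctions, and 153 (5.60%), against 7.18%, when the second TAZ-CAMTA1 library was also left out. Each of the 13 was lost without at least 1 library. The comparison shares the control libraries with the one before.

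Pinx1 encodes a nucleolar inhibitor of telomerase. Its unannotated donor at chr14:63893883-63919096 had no read in control, 0.319, 0.506 and 0.318 RPM in TAZ4A, and 3.18, 3.77 and 3.34 in fusion cells. The groups did not overlap, and all 3 TAZ-CAMTA1 libraries were high, the second included. TAZ-CAMTA1 was at least 9.49-fold above 3 reads per control library. The junction is one of the 72, through TAZ-CAMTA1. The host gene was at 23.4 CPM in control, 30.2 in TAZ4A and 51.2 in fusion cells.

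The other large rises were 2 junctions of Gm37800, a gene model without a known role, 1 of Serpina3g, 1 of the noncoding RNA Gm38414 and 1 on chromosome 1 with no host. The Gm37800 junction at chr1:184610577-184610995 had 0, 0.102 and 0 RPM in control, 0.212, 0.303 and 0.425 in TAZ4A, and 2.33, 2.96 and 1.67 in fusion cells. Both Gm37800 junctions and that of Gm38414 are among the 72, through TAZ-CAMTA1. The large falls were in Neo1 with 2 junctions, Hnrnpa2b1, Tulp4, Lrp8, which encodes an apolipoprotein E receptor, and Rnf183, of which those of Neo1, Hnrnpa2b1 and Tulp4 are among the 72, through control. The Lrp8 donor had 3.74, 1.74 and 2.17 RPM in control, 2.02, 2.02 and 2.76 in TAZ4A, and 0.318, 0 and 0.456 in fusion cells, while the gene was at 115, 95.6 and 32.8 CPM. Control and TAZ4A overlapped, and TAZ-CAMTA1 lay below both (log2 fold change -3.21 ± 0.63 against control, edgeR adjusted p = 0.0483).

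TAZ-CAMTA1 against TAZ4A gave 60 calls by edgeR's quasi-likelihood test (2.14% of the 2806, against 2.14% of all junctions), 21 higher and 39 lower, against 1.05% and 1.1% of all. The fit without the second TAZ-CAMTA1 library gave 286 (10.2%), 119 higher and 167 lower, against 13.2% of all (6.72% higher and 6.53% lower), and the 60 were among them. Of the 60, 20 are among the 72. Without such junctions 40 were called (1.46%), against 1.83% of all junctions, and 247 (9.03%), against 12.8%, when the second TAZ-CAMTA1 library was also left out. Of the 40, 5 remained called in every fit with 1 library left out: 2 of Nrg1 and 1 each of Fst, Mad1l1 and Rnf213. This comparison shares libraries with the other 2. The Fst tandem acceptor was lower in fusion cells by 3.81 ± 0.23 on the log2 scale (edgeR adjusted p = 0.000342), and both Nrg1 junctions outside the 72 were lower.

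Clca3a1 encodes a regulator of calcium-activated chloride channels, and its exon skip at chr3:144747595-144749664 had 0.936, 0.410 and 0.928 RPM in control, 4.14, 3.44 and 3.29 in TAZ4A, and 0.106, 0 and 0.304 in fusion cells. The 3 groups did not overlap. With few TAZ-CAMTA1 reads, the ratio of TAZ4A to TAZ-CAMTA1 was 28.3 (95% counting interval 9.42 to 139). The gene was at 51.6, 193 and 16.3 CPM in the 3 groups. The second Fam198b junction, chr3:79884691-79908588, had 3.19, 2.33 and 1.91 RPM in TAZ4A and no read in fusion cells, where it was at least 6.30-fold lower against 3 reads per library. This junction and that of Clca3a1 are among the 72, through TAZ4A. The Rnf213 junction at chr11:119480932-119481145 had 7.80, 8.29 and 7.12 RPM in control, 22.3, 23.1 and 26.1 in TAZ4A, and 7.95, 4.84 and 6.84 in fusion cells. TAZ4A stood apart, and the other groups overlapped (log2 fold change -1.86 ± 0.23 in TAZ-CAMTA1 against TAZ4A, edgeR adjusted p = 0.00385).

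How many of the 68 Rnf213 junctions were called depended on the second TAZ-CAMTA1 library. In TAZ4A against control 3 were higher with it and 67 without it, against 0.754% and 6.09% of all junctions. In TAZ-CAMTA1 against TAZ4A 9 were lower with it and 61 without it, against 1.1% and 6.53% of all. The Rnf213 gene was at 319, 246 and 349 CPM in control, 806, 779 and 811 in TAZ4A, and 320, 115 and 315 in fusion cells. Junctions of the same gene are not independent measurements. Of the 68, 8 are among the 72, through TAZ4A. Among the largest rises in TAZ-CAMTA1 against TAZ4A were Cxcr4, the receptor of the chemokine CXCL12, 2 junctions of Platr26, 1 of Gm2895, 1 of Gm37800 and the Pinx1 donor. Those of Platr26, Gm37800 and Pinx1 are among the 72, through TAZ-CAMTA1. The Cxcr4 junction at chr1:128589902-128592194 used a donor 6 bases from the annotated one. It had 0.624, 0.717 and 0.619 RPM in control, 0, 0.404 and 0.212 in TAZ4A, and 1.59, 1.08 and 1.82 in fusion cells. The groups did not overlap, and the gene was at 217, 26.3 and 188 CPM. The Cxcr4 junction lay near the read minimum and would not reach it without its TAZ-CAMTA1 reads, so it is described with no p-value.

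Usage follows the level of the host gene as well as the choice of splice site. For called junctions whose host gene was tested with limma on log2(CPM + 0.5), the gene was called in the same direction for 28 of 30 in the first comparison, TAZ4A with control, 15 of 16 in the second, the fusion with control, and 52 of 55 in the third, the fusion with TAZ4A. It was called in the opposite direction for 0 in each. Of all genes, 24.2%, 31% and 36.6% were called in these comparisons. When the second TAZ-CAMTA1 library was left out, the same held for 275 of 302, 131 of 150 and 252 of 261, against 55.9%, 58.5% and 60.3% of all genes called, and 9 of the 150 went the opposite way. Across 2637 junctions with a tested host, the log2 fold changes of junction and gene correlated at Pearson 0.73, 0.62 and 0.72 and Spearman 0.63, 0.52 and 0.62 in these fits. Those are descriptions across junctions that share hosts and libraries, and these counts include the calls among the 72.

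**Figure D4:**
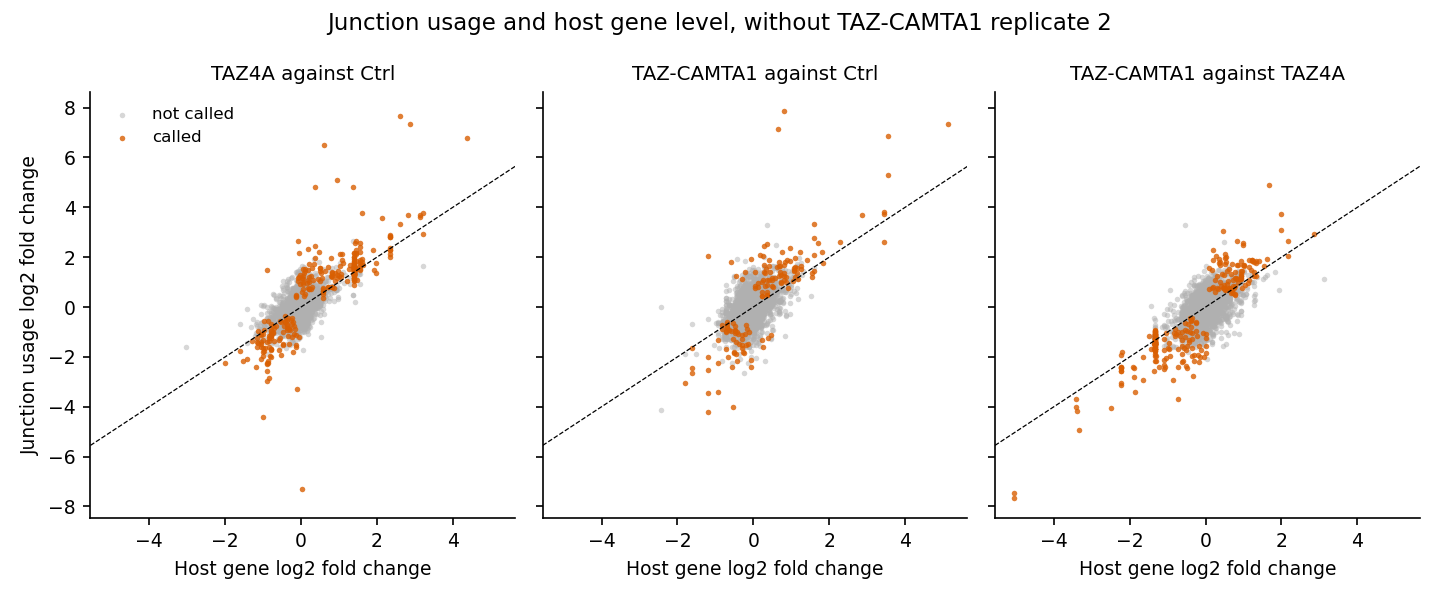
Log2 fold change of each unannotated junction (y axis) against that of its host gene (x axis) in the 3 comparisons, without the second TAZ-CAMTA1 library (n = 2637 junctions); orange points were called in the usage test and the dashed line marks equal change. Called points lie mostly on the same side of 0 as their gene, with Pearson correlations of 0.73, 0.62 and 0.72 over all points.

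A second test asked about the choice of site, apart from gene level. For each junction, its reads were set against those of all other junctions sharing either end, and edgeR's quasi-likelihood test compared the log2 odds between groups. Of the 2806, 2210 could be tested, 179 had no other junction at either end and 417 had too few reads. In TAZ4A against control 10 of the 2210 were called (0.452%), 5 higher and 5 lower, against 0.055% of 50900 junctions tested (0.0314% higher and 0.0236% lower). In TAZ-CAMTA1 against control 14 were called (0.633%), 8 higher and 6 lower, against 0.0786% of all (0.0452% higher and 0.0334% lower). In TAZ-CAMTA1 against TAZ4A 8 were called (0.362%), 5 higher and 3 lower, against 0.0609% of all (0.0373% higher and 0.0236% lower). Leaving out the second TAZ-CAMTA1 library gave 10, 12 and 4, all among the first, against 0.0648%, 0.055% and 0.0314% of all. Of the calls with all libraries 4, 3 and 1 are among the 72. Without such junctions 6, 11 and 7 of 2180 were called (0.275%, 0.505% and 0.321%), against 0.0472%, 0.0728% and 0.059% of all, and 6, 9 and 3 when the second TAZ-CAMTA1 library was also left out, against 0.057%, 0.0492% and 0.0295%.

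The shares called were above those of all junctions tested, a difference that was not itself tested. The median absolute difference in share was 2.30, 2.84 and 2.57 percentage points in the 3 comparisons, against 0.727, 0.758 and 0.725 for all tested junctions. Unannotated junctions had lower usage, with a median of 1.21 RPM against 4.18 RPM for annotated ones. How much of the wider differences is counting error was not tested. The median fitted log2 odds difference over all tested junctions in TAZ-CAMTA1 against control was 0.08 with the second library and 0.20 without it. Calls were few against the number tested. Outside the 72, the calls that remained in every fit with 1 library left out were 3 in TAZ-CAMTA1 against control, in Ifi27, Neo1 and Sh3bp5. The host gene was called the same way for 5, 4 and 2 of these junctions, the opposite way for 1, 3 and 2, and not called for 4, 7 and 4.

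The Hnrnpa2b1 skip joins a donor to an acceptor beyond the annotated exon. It had 2.03, 2.35 and 2.27 RPM in control, no read in TAZ4A, and 0.212, 0 and 0 RPM in fusion cells. The control share was 0.387, 0.361 and 0.347%, and the 0 reads in TAZ4A allow a share of up to 0.0168% over the group. Control lay above every other library. The skip is one of the 72, through control. In TAZ4A against control the gene's level differed by 0.03 on the log2 scale (limma adjusted p = 0.905). It had 58 control reads, where 3360 to 6375 reads lay at these ends in each control library.

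Pecam1 skips an exon in its unannotated junction. The share was 19.5, 17.6 and 17.4% in control, 27.4, 26.3 and 25.7% in TAZ4A, and 19.5, 19.6 and 20.3% in fusion cells. Every TAZ4A value lay above all others, and control and TAZ-CAMTA1 overlapped. The log2 odds differed by 0.70 ± 0.14 in TAZ4A against control (edgeR adjusted p = 0.00294). The call was lost, with an adjusted p of up to 0.307, without control replicate 2 or 3 or any TAZ4A library. The junction's own usage was 97.8, 83.7 and 81.7 RPM in control and 87.4, 81.4 and 84.8 in TAZ4A, while the gene went from 3321 to 2483 CPM (limma adjusted p = 0.019).

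Fkbp1a used its unannotated donor for 46.4, 47.9 and 43.3% of reads in control, 31.4, 31.0 and 30.3% in TAZ4A, and 37.6, 35.8 and 37.5% in fusion cells. The 3 groups did not overlap. The log2 odds in TAZ4A against control differed by -0.92 ± 0.18 (edgeR adjusted p = 0.00129, up to 0.215 with 1 library left out). Tsc22d1, a transcriptional regulator induced by TGF-beta, has long and short forms that start at different promoters. A distant unannotated donor at chr14:76479429-76505248 took 7.14, 6.83 and 7.34% in control, 15.3, 13.8 and 14.7% in TAZ4A, and 7.95, 6.75 and 8.17% in fusion cells. TAZ4A was the high group (edgeR adjusted p = 0.00406, up to 0.215 with 1 library left out). A second Tsc22d1 donor with a share call is one of the 72, through TAZ4A. The gene did not pass the test in that comparison (limma adjusted p = 0.543).

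The remaining TAZ4A share calls were higher in Micall2 and Fez2 and lower in Lrch3, Mad1l1 and the Neo1 junction with neither end annotated, and those of Fez2 and Neo1 are among the 72. Micall2, an effector of Rab proteins at cell junctions, had a donor with no read in control. Its share was 16.7, 10.9 and 11.8% in TAZ4A, and 11.5, 6.67 and 24.4% in fusion cells. It was also called in TAZ-CAMTA1 against control. The Micall2 junction reached the read minimum only through its TAZ4A and TAZ-CAMTA1 reads. Its calls against control are therefore not free of the rule, and its values are described with no p-value. The Lrch3 skip had 66.7, 65.2 and 51.7% in control, 13.3, 17.9 and 12% in TAZ4A and 29.2, 0 and 47.4% in fusion cells. In TAZ4A against control the calls of Micall2, Lrch3 and Mad1l1 were lost without at least 1 library. The edgeR adjusted p then reached 0.215 for Lrch3 and 0.877 for Mad1l1.

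In TAZ-CAMTA1 the Pinx1 donor took 61.2, 36.4 and 53.7% of reads at its ends, against 0 of 104 in control, which allows up to 2.88%, and 7.89, 11.6 and 7.89% in TAZ4A. The second TAZ-CAMTA1 library was the lowest of its group and still above every other library. As one of the 72, this junction is described with no p-value. An unannotated donor of Neo1 at chr9:58978762-58979005 took 2.70, 4.69 and 2.24% in control, 10.8, 11.5 and 11.9% in TAZ4A, and 25.2, 75 and 29.1% in fusion cells, the 75% resting on 8 reads. The 3 groups did not overlap (edgeR adjusted p = 1.31e-08 in TAZ-CAMTA1 against control). This share rose while the gene went from 947 to 352 CPM.

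Ifi27, an interferon-inducible gene, used an unannotated donor for 13.8, 13.4 and 12.6% of reads in control, 12.1, 13.2 and 7.19% in TAZ4A, and 5.24, 2.04 and 2.15% in fusion cells. TAZ-CAMTA1 lay below both groups, and control and TAZ4A overlapped. The edgeR adjusted p was 2.3e-06 against control. Against TAZ4A it was 0.000593, and 0.101 without the second TAZ-CAMTA1 library. That call was also lost without TAZ4A replicate 1 or 2, and the edgeR adjusted p with 1 library left out was up to 0.154. A Sh3bp5 donor took 11.9, 12 and 11.1% in control, 7.97, 7.87 and 9.33% in TAZ4A, and 3.77, 1.90 and 3.26% in fusion cells. The 3 groups did not overlap (edgeR adjusted p = 0.000437 in TAZ-CAMTA1 against control).

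Hnrnpdl encodes an hnRNP protein, and its unannotated acceptor at chr5:100035740-100036103 lies only in transcripts that vM21 marks as nonsense-mediated decay or retained intron. It took 34.3, 40.1 and 33.1% in control, 44.1, 41.2 and 41.6% in TAZ4A, and 58.8, 59.7 and 63.7% in fusion cells. The groups did not overlap (edgeR adjusted p = 0.00566 in TAZ-CAMTA1 against control, 0.239 without the third control library). Wsb1, a ubiquitin ligase adaptor, had a decay-marked acceptor at chr11:79243576-79244462 with 8.67, 9.71 and 9.97% in control, 20.1, 17.4 and 16.4% in TAZ4A, and 26.2, 16.9 and 21.0% in fusion cells. Control was low and the other groups overlapped (edgeR adjusted p = 0.00795 in TAZ-CAMTA1 against control, up to 0.896 with 1 library left out). Zdhhc20 was also higher, and Anp32a and Egfl7 lower, with adjusted p up to 0.422, 0.356 and 0.386 when 1 library was left out. Zdhhc20 was at 0.422 and Egfl7 at 0.351 without the second TAZ-CAMTA1 library. The Neo1 junction with neither end annotated, one of the 72, had a share call too.

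The annexin gene Anxa3 had an unannotated acceptor at 5.83, 5.99 and 4.82% in control, 6.60, 4.95 and 4.83% in TAZ4A, and 17.3, 10.2 and 15.1% in fusion cells. TAZ-CAMTA1 was the high group and the other groups overlapped. The share was called against control (edgeR adjusted p = 0.00749, up to 0.524 with 1 library left out) and against TAZ4A (0.0014, up to 0.224). Its gene fell in TAZ-CAMTA1 against TAZ4A (341 to 197 CPM, limma adjusted p = 0.000718). Rgs12, a regulator of G protein signalling, had a donor at 36.1, 48.8 and 42.9% in control, 61.0, 60.5 and 73.4% in TAZ4A, and 14.0, 39.3 and 31.4% in fusion cells. Sptan1 encodes alpha-II spectrin, and its skip had 41.2, 41.4 and 37.9% in control, 49.5, 47.5 and 46.9% in TAZ4A, and 29.4, 27.1 and 31.9% in fusion cells. The 3 groups of Sptan1 did not overlap, while control and TAZ-CAMTA1 overlapped for Rgs12. Both shares were lower in fusion cells than in TAZ4A (edgeR adjusted p = 0.00311 and 0.00242, up to 0.824 and 0.220 with 1 library left out). The last calls were higher shares for Cast, Phldb2 and a Gas5 junction, with adjusted p of 0.1, 0.0811 and 0.0855 without the second TAZ-CAMTA1 library.

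**Figure D5:**
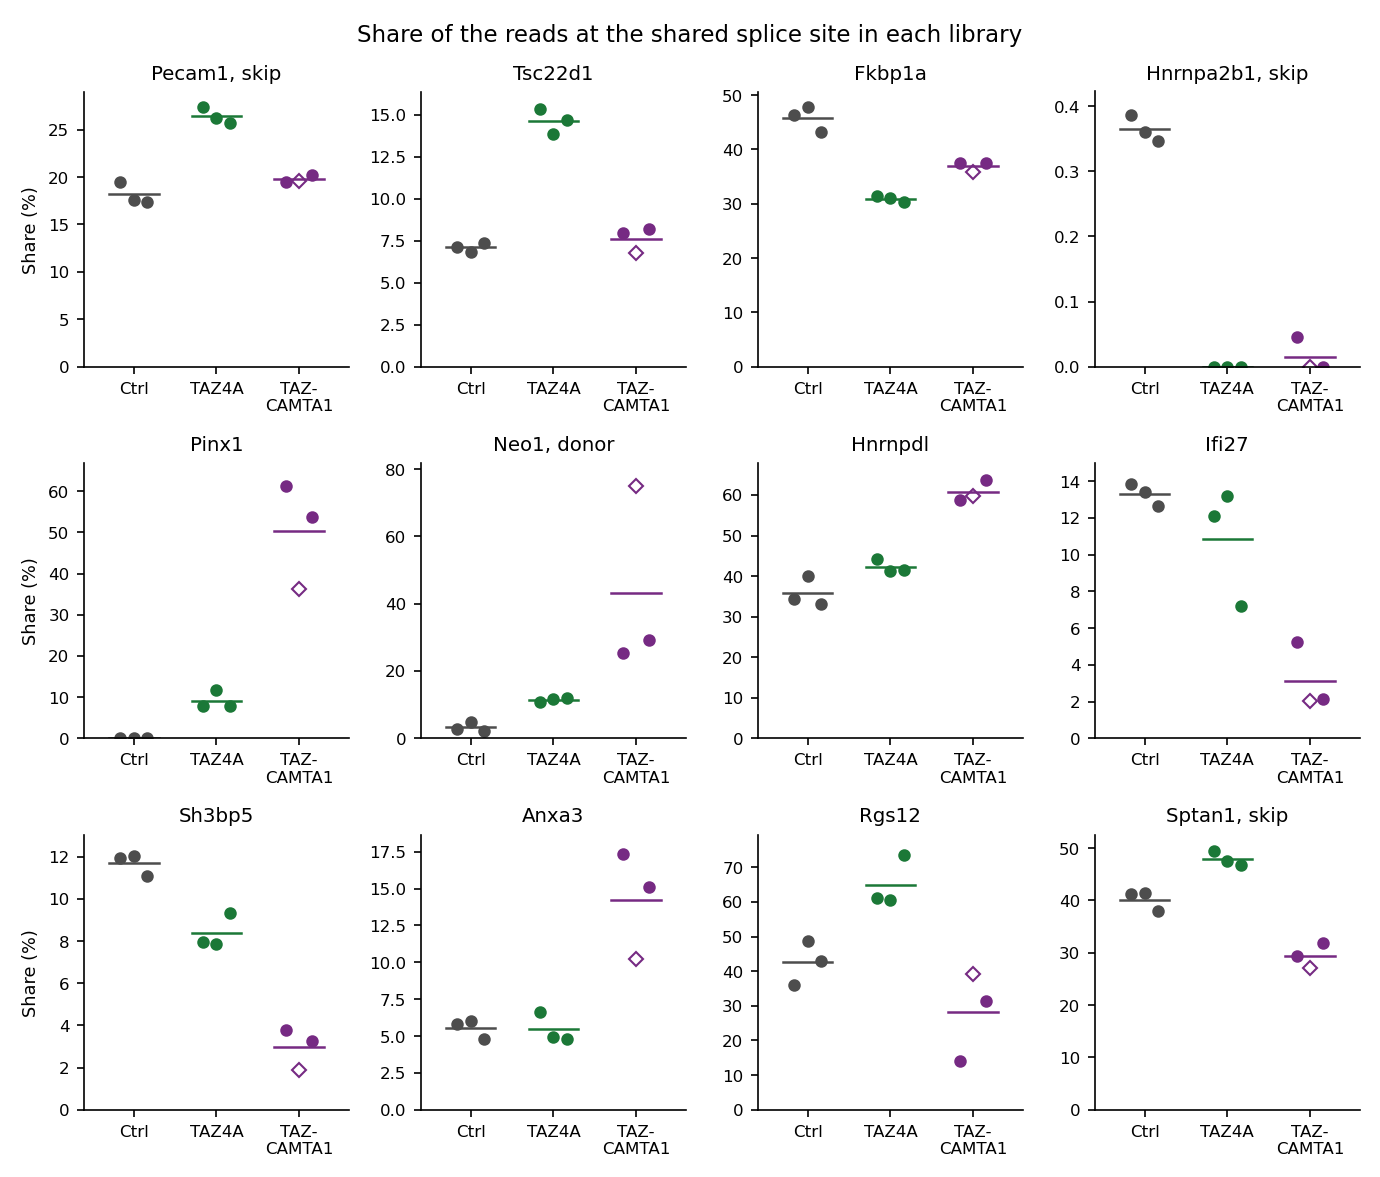
Share of reads at either end taken by 12 unannotated junctions (y axis, percent) in the 9 libraries by group; lines are group means (n = 3) and the open diamond is the second TAZ-CAMTA1 library. Pinx1 is at 36.4 to 61.2% in fusion cells and 0% in control, and Pecam1 is at 25.7 to 27.4% in TAZ4A and at most 20.3% elsewhere. The Hnrnpa2b1 and Pinx1 panels show junctions of the 72.

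By kind, the counts of share calls in the 3 comparisons, in the order used above, were 3, 3 and 2 of 501 junctions with both ends annotated. They were 6, 7 and 4 of 570 with a donor over 50 bases away, 0, 3 and 1 of 391 with an acceptor that far, and 1, 1 and 1 of 281 with neither end annotated. Without the second TAZ-CAMTA1 library these were 3, 1 and 1, then 6, 7 and 2, then 0, 3 and 1, and last 1, 1 and 0. Over the 2210 the calls with all libraries were 0.452%, 0.633% and 0.362%. Over all junctions tested they were 0.055%, 0.0786% and 0.0609%, and 0.0648%, 0.055% and 0.0314% without that library. Tandem acceptors had 0 in each of the 3 comparisons of 216 tested, with and without that library. The group median of the tandem acceptor share was 24.8% in control, 26.1% in TAZ4A and 26.1% in fusion cells. Acceptors and donors within 50 bases otherwise gave 0 calls among 130 and 121 tested in each comparison, again with and without it. With limma the tandem acceptors and these other near sites also gave 0 calls, and an unadjusted edgeR p under 0.05 was seen for 5, 6 and 4 tandem acceptors and for 3, 4 and 10 of the other 251. At the rates of calls above, few or no calls would fall among so few junctions, so the counts of 0 do not set these kinds apart. For the 148 junctions that vM21 places only in transcripts marked for decay, the median share difference over the 135 tested was 0.0946, 0.0970 and 0.0924 percentage points in the 3 comparisons, and 2 were called, both in Wsb1.

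Few unannotated junctions lay in the gene groups listed for these cells. Endothelial identity genes held 33 in 8 genes, interferon response genes 10 in 7, YAP/TAZ targets 9 in 4, and collagen and matrix genes 6 in 4. Usage of junctions of the same gene follows that gene's level, so the counts below are not of independent changes. With all libraries, 0 of the 58 junctions were called for usage against control in either comparison by edgeR's quasi-likelihood test. Of all junctions, 1.13% were called in TAZ4A and 0.756% in TAZ-CAMTA1 against control. In TAZ-CAMTA1 against TAZ4A 2 endothelial junctions were higher and 3 interferon junctions lower, against 1.05% higher and 1.1% lower of all. Of the 58 junctions in these groups, 22 in TAZ4A against control and 13 in TAZ-CAMTA1 against control had an unadjusted p under 0.05, and DESeq2 called 2 in each. In the fit without the second TAZ-CAMTA1 library, TAZ4A against control had 11 of 33 endothelial junctions lower and 0 higher, 7 of 10 interferon junctions higher, 2 of 9 YAP/TAZ target junctions higher and 1 of 6 matrix junctions higher, against 6.09% higher and 4.76% lower of all junctions. In TAZ-CAMTA1 against TAZ4A that fit had 9 endothelial and 1 matrix junctions higher, and 7 interferon, 2 YAP/TAZ target and 1 matrix junctions lower, against 6.72% higher and 6.53% lower of all. In TAZ-CAMTA1 against control it had 3 endothelial, 1 YAP/TAZ target and 1 matrix junctions higher, and 3 endothelial and 1 interferon junctions lower, against 4.71% and 2.66% of all. The interferon junctions in Rtp4 and Ifi44 are among the 72, through TAZ4A. The Thbs1 tandem acceptor, in the gene of the matrix protein thrombospondin 1, is an example: 10.1, 5.84 and 5.67 RPM in control, 20.3, 20.0 and 19.1 in TAZ4A, and 7.31, 1.08 and 12.5 in fusion cells. TAZ4A was high, and the second TAZ-CAMTA1 library was the lowest. Its adjusted p in TAZ4A against control was 0.404 with that library and 9.74e-07 without it, and its share, 33.3 to 45.9% over all libraries, was not called (edgeR adjusted p = 0.789).

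Genes of the splicing machinery were given from lists of known members, of which 121 of 140 were tested with limma on log2(CPM + 0.5). In TAZ4A against control 2 were higher and 4 lower, against 12.9% and 11.3% of all genes. In TAZ-CAMTA1 against control 4 were higher and 30 lower, against 16.1% and 14.9% of all genes, and against TAZ4A 6 were higher and 30 lower, against 18.4% and 18.3%. Without the second TAZ-CAMTA1 library these counts were 20 higher and 21 lower (27.3% and 28.7% of all genes), 7 and 65 (27.3% and 31.2%), and 8 and 70 (29.2% and 31.1%). SR proteins, which bind exon enhancers, had 5 of 12 lower in TAZ-CAMTA1 against control and 0 higher, and hnRNP proteins 11 of 26 lower and 2 higher. Without that library 9 SR proteins were lower and 0 higher, and 15 hnRNP proteins were lower and 2 higher. Srsf1, an SR protein, went from 547 ± 23.4 CPM in control to 383 ± 24.0 in fusion cells (SD, n = 3; log2 fold change -0.52 ± 0.08, limma adjusted p = 0.00132). Srsf2 went from 285 ± 5.68 to 196 ± 1.43 CPM (limma adjusted p = 0.000348), with all 3 TAZ-CAMTA1 libraries below all others for both. Of 18 nonsense-mediated decay genes tested, 1 was higher and 1 lower in this comparison. Without the second TAZ-CAMTA1 library 1 was higher and 8 were lower. The higher gene was Smg6, the endonuclease of this decay, from 59.7 ± 0.716 to 85.9 ± 1.18 CPM (limma adjusted p = 0.000361). Smg8 was lower, from 41.2 ± 1.74 to 31.5 ± 5.90 CPM (limma adjusted p = 0.0488). In TAZ4A, Nova2, a splicing regulator known from neurons and endothelium, was lower at 51.5 ± 0.352 against 87.0 ± 2.99 CPM in control (limma adjusted p = 0.000261), and Celf2, an RNA-binding splicing regulator, was higher at 8.55 ± 0.418 against 3.29 ± 0.290 CPM (limma adjusted p = 0.000796). Whether these genes bear on the junctions above was not tested.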

How the data were processed

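RNA-seq of 9 MS1 libraries was deposited as STAR junction files and gene tables. Per the submitters' processing notes, bcl2fastq, FastQC, STAR, featureCounts and edgeR were used with mm10; versions and the annotation given to STAR are not given in the sources used here. Junction files hold counts of unique and multi-mapped reads per junction, as deposited by the authors. The gene table holds CPM, as deposited by the authors (entered as a signal because each value is a whole number of reads after scaling; 100% of values came out whole within 0.01, with 22817562 to 35491338 reads per library). A table of TPM, as deposited by the authors, served as an alternative for genes. 0 columns were left unassigned.

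Junctions with 50 or more unique reads were tested with edgeR's quasi-likelihood test (glmQLFit, robust; edgeR 4.0.16, R 4.3.3), with all 9 libraries in 1 fit, the total of unique junction reads as library size and a threshold of 0.05 after Benjamini-Hochberg adjustment over all of them. The share test set each junction's reads against those of other junctions at either end, with a term for each library, where 2 libraries of each group had 10 or more reads. Genes at 0.5 CPM or more in 3 libraries were tested with limma 3.58.1 on log2(CPM + 0.5). DESeq2 1.42.0 was an alternative. Python 3.11.15, numpy 2.4.6, pandas 2.3.3, scipy 1.17.1 and matplotlib 3.10.9 were used for the rest. The edgeR usage and share tests were checked on simulated data, for TAZ4A against control only. That simulation had the same spread for all junctions and no library that stood apart. The limma tests and DESeq2 were not checked in this way. Intervals are 95% and exact, and intervals and floors (3 reads) cover counting error only.

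Junctions named are the 10 with the highest mean, the 6 largest rises and falls per comparison among called junctions with 1 RPM or more, and the 6 largest share changes each way. Those that remained called with every library left out, and the list examples, were chosen after their values were seen. Counts without junctions that reached 50 reads through 1 group alone were added after the data were seen. The junctions and gene lists were chosen with earlier results of these data known. No genome sequence was used, so bases inside introns are not printed. The sequences of 1 junction are not reported here.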

Additional observations from a re-analysis of the deposited data

How the results depend on the processing

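Limits: 3 libraries per group, low counts per junction and 1 library that stands apart set what could be called. Usage calls, in the order TAZ4A with control, fusion with control and fusion with TAZ4A, were 36, 22 and 60. They were 92, 67 and 154 with DESeq2, 115, 50 and 163 with no read minimum, and 385, 0 and 7 when edgeR was fitted to the 6 libraries compared, where 701, 244 and 390 had an unadjusted p under 0.05. Leaving out 1 library gave 9 to 331, 2 to 170 and 9 to 286 calls, the highest each time without the second TAZ-CAMTA1 library. Each control and each TAZ4A library lowered all 3 counts by over 1.5 times when left out (to 9 to 12, 2 to 7 and 9 to 35), and so did the first fusion library for the second count (10) and the third fusion library for the second and the last (11 and 36). Share calls were 10, 14 and 8. They were 6, 7 and 1 with limma, 28, 46 and 41 against annotated junctions alone, and 13 in the last comparison with 50 reads as the coverage minimum. Leaving out 1 library gave 1 to 10, 8 to 14 and 2 to 9. Splicing genes called were 6, 34 and 36, with 3 to 41, 20 to 72 and 22 to 78 when 1 library was left out, and 6, 31 and 33 by edgeR on the recovered reads, chosen after seeing the data. The cause of these changes was not tested. No named junction or gene reversed under the alternatives run. With the replicate number as a block, usage calls were 17, 6 and 28, share calls 5, 8 and 4 and splicing genes 6, 30 and 32. Deviations of same-numbered libraries correlated at -0.10 to 0.35, and those of differently numbered libraries at -0.34 to 0.35. Not every library correlated best with its own number, and these values do not settle whether the numbers pair the libraries.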
